A study of Mus musculus with 10 samples.

Results

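The guanylate-binding proteins of the mouse were followed in glomeruli, the filtering units of the kidney, through every row of the normalized count table whose gene symbol is Gbp followed by a number and at most 1 letter. This rule found 10 genes among the 12934 rows, namely Gbp2, Gbp2b, Gbp3, Gbp5 and Gbp7 on chromosome 3 and Gbp4, Gbp6, Gbp8, Gbp9 and Gbp10 on chromosome 5. All libraries came from wildtype DBA/2J mice, an inbred strain labelled as susceptible to diabetic kidney disease (DKD), killed at 17 weeks of age. The diabetic Esm-1 group (n = 3) received plasmids for mouse Esm-1 and the Sleeping Beauty transposase by hydrodynamic injection at 7 weeks, streptozotocin from 8 weeks, and later a 60% high fat diet for 5 weeks. The diabetic saline group (n = 4) had saline injected in place of the plasmids and the same streptozotocin and diet. The non-diabetic saline group (n = 3) had saline and the vehicle of streptozotocin, and the labels give the high fat diet to diabetic mice only, so diabetes and diet cannot be told apart. No group carried a plasmid without Esm-1, and none carried Esm-1 without diabetes. Hydrodynamic injection delivers plasmids mainly to the liver, streptozotocin kills the insulin-producing beta cells of the pancreas, and Esm-1 (endocan) is a proteoglycan that endothelium secretes. The labels do not say whether each library came from 1 animal, so the p-values measure the spread between these libraries.

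Guanylate-binding proteins are large GTPases of the dynamin superfamily that most cells make after exposure to interferons, above all interferon gamma. In infected cells they assemble on bacteria and on the vacuoles of parasites, and they open the way to caspase-11 and the inflammasomes, the complexes that trigger inflammatory cell death. A few members carry a lipid anchor, added by prenylation, that holds them on membranes. Their genes are induced through short DNA elements, the interferon-stimulated response element (ISRE), bound by complexes that hold interferon regulatory factors, and the gamma-activated site (GAS), named for its response to interferon gamma.

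The sequences before the start sites of the chromosome 3 members are shown because these genes are neighbours and 4 of them were higher in both diabetic groups. RefSeq windows were at hand for 5 of the 10 genes, all on chromosome 3, so the chromosome 5 cluster with Gbp8 and Gbp6 could not be read. Each window below holds the 250 bases before an annotated start in build GRCm38.p6, on the plus strand, written 5′ to 3′. The assembly is not of the DBA/2J strain. Capitals mark matches to the ISRE core, which is GAAA, any 2 bases and GAAA again, here read on the other strand as TTTC, any 2 bases and TTTC. The windows are chr3:142620413-142620662 for Gbp2, chr3:142559794-142560043 for Gbp3, chr3:142530086-142530335 for Gbp7 and chr3:142496684-142496933 for Gbp5.
Gbp2: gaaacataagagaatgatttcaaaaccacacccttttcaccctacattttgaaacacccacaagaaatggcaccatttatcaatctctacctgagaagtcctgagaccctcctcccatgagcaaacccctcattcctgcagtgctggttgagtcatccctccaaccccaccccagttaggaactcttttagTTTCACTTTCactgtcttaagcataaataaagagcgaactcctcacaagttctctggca
Gbp3: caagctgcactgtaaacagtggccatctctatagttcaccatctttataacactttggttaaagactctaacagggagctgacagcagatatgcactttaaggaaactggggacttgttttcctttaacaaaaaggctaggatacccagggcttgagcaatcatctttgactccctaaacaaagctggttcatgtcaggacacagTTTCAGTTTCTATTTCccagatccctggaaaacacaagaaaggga
Gbp7: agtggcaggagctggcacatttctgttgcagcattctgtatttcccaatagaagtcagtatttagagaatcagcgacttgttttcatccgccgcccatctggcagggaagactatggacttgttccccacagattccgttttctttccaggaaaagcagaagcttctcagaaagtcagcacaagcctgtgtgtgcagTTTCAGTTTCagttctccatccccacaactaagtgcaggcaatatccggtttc
Gbp5: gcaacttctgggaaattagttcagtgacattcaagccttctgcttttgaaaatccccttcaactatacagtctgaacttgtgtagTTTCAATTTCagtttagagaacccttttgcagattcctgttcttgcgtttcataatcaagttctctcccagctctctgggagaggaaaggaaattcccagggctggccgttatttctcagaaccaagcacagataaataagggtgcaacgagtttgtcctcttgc
Counted back from the base before the start as -1, the first match lay at -59 to -50 in Gbp2, -45 to -36 in Gbp3, -53 to -44 in Gbp7 and -165 to -156 in Gbp5. Gbp3 held 2 matches, TTTCAGTTTC and TTTCTATTTC, that overlap. Gbp2b also held a match, at -137 to -128, and a window at a second annotated start of Gbp3 held none. In all, 5 of 6 windows of the chromosome 3 members held the ISRE core, against 2.98% of the 32851 windows of 250 bases in the same collection. The GAS core TTCNNNGAA, which reads the same on both strands and overlapped no ISRE match, was present in the windows of Gbp5 and Gbp7, against 7.02% of all windows. A match describes letters in these windows and not binding, and the windows were counted with the behaviour of the genes already known.

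Values are normalized counts, that is reads divided by the size factor of a library, and the table held whole reads once this division was undone. Total depth was 3931712 to 11300629 reads per library, of which the ribosomal RNA precursor Rn45s took 83.9% to 86.7%. This left 338549 to 962321 reads for all genes other than Rn45s, Lars2 and Mir6236, and 315 to 1533 reads for the 10 Gbp genes together. One read was worth 0.62 to 1.77 normalized counts. All 18 podocyte, all 18 endothelial and all 12 mesangial markers were present. Their mean log2(value + 1) in diabetic Esm-1, diabetic saline and non-diabetic saline was 7.14, 7.75 and 8.21 for podocytes, 6.24, 6.72 and 7.04 for endothelium, and 5.60, 5.93 and 6.12 for mesangium. Esm1 itself was listed at 0 to 6.51, 0.93 to 3.20 and 0 to 2.48 normalized counts in the same order of groups, and plasmid expression outside glomeruli was not measured.

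Diabetes with the high fat diet was first examined through diabetic saline against non-diabetic saline. Of the 10 Gbp genes, 8 reached 10 normalized counts in at least 3 libraries and were tested, and 6 of these rose, with an adjusted p under 0.05 in limma with Benjamini-Hochberg adjustment over 8239 genes. None of the 8 fell. Among all tested genes, 5.53% passed, 3.73% rose and 1.81% fell. The order by size was Gbp8, Gbp6, Gbp3, Gbp2, Gbp5 and Gbp7, with 10.5-fold for the first and 2.61-fold for the last. The libraries of the 2 groups did not overlap for these 6 genes, an arrangement with diabetic saline above non-diabetic saline that 8.19% of all tested genes showed, with 8.34% in the opposite arrangement. Gbp8 and Gbp6 each reached 10 normalized counts in only 1 of 3 non-diabetic libraries, so they entered the test through the diabetic groups. In bulk samples such as these, more cells of a type and more RNA per cell cannot be told apart.

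**Figure D1:**
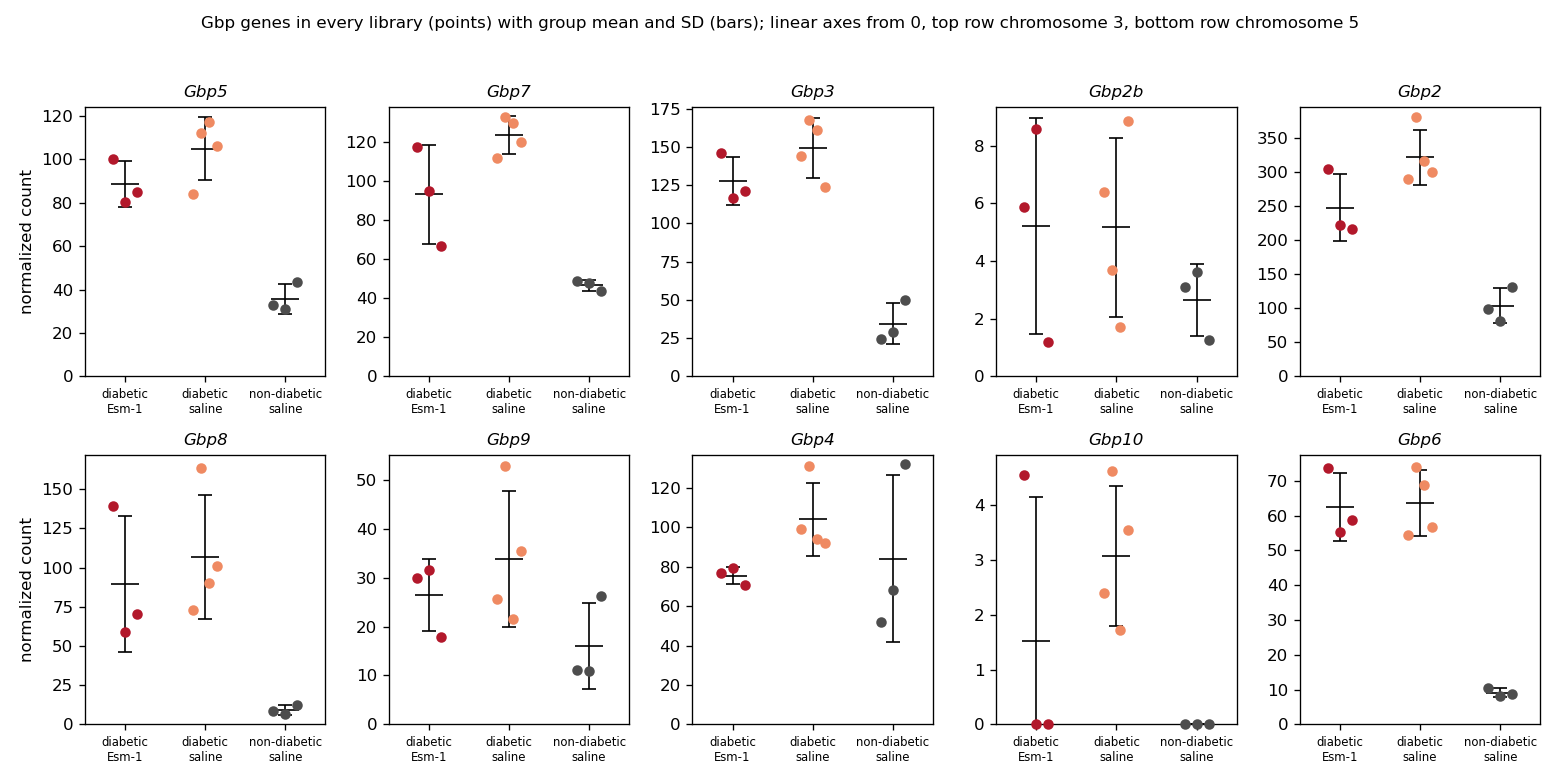
Normalized counts (vertical axes, linear from 0) of the 10 Gbp genes, with 1 point per library and bars for group mean and SD, cut at 0 for Gbp10; chromosome 3 genes fill the top row and chromosome 5 genes the bottom row. For Gbp2, Gbp3, Gbp5, Gbp6, Gbp7 and Gbp8 every library of both diabetic groups lies above the 3 non-diabetic libraries, whereas for Gbp4 the highest point is non-diabetic saline replicate 3, at 132.

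Gbp2, a prenylated member that coats the Toxoplasma vacuole and takes part in the activation of caspase-11 by bacteria, was the most abundant. It had 304, 221 and 217 normalized counts in diabetic Esm-1 replicates 1 to 3 and 289, 379, 316 and 299 in diabetic saline replicates 1 to 4. The non-diabetic saline libraries had 99.1, 80.7 and 131. Every diabetic library of either kind was thus above every non-diabetic one. For diabetic saline against non-diabetic saline, limma gave a log2 difference of 1.64 (SE 0.17, adjusted p = 1.62e-06), or 3.12-fold on the scale of log2(value + 1). That scale understates the change of low genes.

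Gbp5, a prenylated member known for promoting assembly of the NLRP3 inflammasome, had 100.3, 80.1 and 85.0 normalized counts in diabetic Esm-1 and 84.0, 112, 117 and 106 in diabetic saline. Its non-diabetic saline libraries had 32.8, 30.8 and 43.6, below all diabetic ones. It rose by log2 1.53 (SE 0.19, limma adjusted p = 1.38e-05) in diabetic saline. Gbp7, a member linked in mouse macrophages to delivery of the NADPH oxidase to bacterial vacuoles, had 118, 95.4 and 67.0 in diabetic Esm-1, 112, 133, 130.1 and 120.4 in diabetic saline, and 48.9, 48.1 and 43.6 in non-diabetic saline. The diabetic saline and non-diabetic saline libraries of Gbp7 were each tightly grouped and far apart. The log2 difference between them was 1.38 (SE 0.19, limma adjusted p = 5.51e-05).

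Gbp3 had 145.9, 116 and 121 normalized counts in diabetic Esm-1, 143.98, 168, 161 and 124 in diabetic saline, and 24.8, 29.0 and 49.9 in non-diabetic saline. Non-diabetic saline replicate 3 was the highest of its group and still lower than every diabetic library. Gbp3 rose 4.39-fold in diabetic saline (log2 2.13, SE 0.21, limma adjusted p = 4.44e-07).

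Gbp8, at the start of the chromosome 5 cluster, had 139, 59.1 and 70.6 normalized counts in diabetic Esm-1, 72.8, 164, 90.4 and 101 in diabetic saline, and 8.67, 6.35 and 12.5 in non-diabetic saline. Both diabetic groups spread widely, and the lowest diabetic library was still far above the highest non-diabetic one. Its log2 difference of 3.39 between diabetic saline and non-diabetic saline (SE 0.29, limma adjusted p = 1.33e-07) was at rank 5 by size among all 8239 genes. Gbp6, at the other end of the cluster, had 73.6, 55.3 and 58.7 in diabetic Esm-1, 54.4, 74.0, 68.9 and 56.7 in diabetic saline, and 10.5, 8.16 and 8.73 in non-diabetic saline. Both diabetic groups covered nearly the same range. Gbp6 rose 6.34-fold in diabetic saline (log2 2.66, SE 0.21, limma adjusted p = 5.4e-08).

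Gbp9 and Gbp4, which lie between them on the chromosome, did not pass. Gbp9 had 29.95, 31.5 and 17.96 normalized counts in diabetic Esm-1, 25.6, 52.8, 21.5 and 35.4 in diabetic saline, and 11.1, 10.9 and 26.2 in non-diabetic saline. Its log2 difference for diabetic saline against non-diabetic saline was 1.06 (SE 0.33) and did not pass (limma adjusted p = 0.0658). Gbp4 had 76.8, 79.1 and 70.6 in diabetic Esm-1, 99.2, 131, 93.9 and 92.1 in diabetic saline, and 52.0, 68.0 and 132 in non-diabetic saline. In both genes non-diabetic saline replicate 3 lay within or above the range of the diabetic saline libraries. The log2 difference of Gbp4 was 0.40 (95% interval -0.08 to 0.89, limma adjusted p = 0.373). Without non-diabetic saline replicate 3 both genes passed in limma, Gbp9 at log2 1.45 (adjusted p = 0.0136) and Gbp4 at log2 0.78 (adjusted p = 0.0314). That library and diabetic saline replicate 4 have titles with numbers under 100 while all others lie above, and the labels do not say what the numbers mean. Without both libraries Gbp9 stood at log2 1.41 and Gbp4 at 0.84 (limma adjusted p = 0.0237 for each). Gbp9 also passed in edgeR (adjusted p = 0.047) and with a term for these titles (adjusted p = 0.0291).

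Gbp2b and Gbp10 were too low for the test. Gbp2b, the mouse gene formerly called Gbp1, had 5.86, 8.58 and 1.20 normalized counts in diabetic Esm-1, 6.399, 3.70, 1.72 and 8.85 in diabetic saline, and 3.10, 3.63 and 1.25 in non-diabetic saline. Its libraries overlapped in all groups. The 19 reads in diabetic saline and 10 in non-diabetic saline gave a depth-scaled ratio of 1.65 with an exact 95% counting interval of 0.729 to 3.97. Gbp10 had 4.56, 0 and 0 in diabetic Esm-1, 2.40, 4.63, 1.72 and 3.54 in diabetic saline, and 0 in each non-diabetic library. It was thus detected in all 4 diabetic saline libraries and in 1 diabetic Esm-1 library. With 12 reads in diabetic saline and 0 in non-diabetic saline, the exact 95% lower limit of the depth-scaled ratio was 2.41. The 7 reads in diabetic Esm-1 gave a lower limit of 1.48, and all 7 came from replicate 1, without which both groups stood at 0. These intervals and limits cover counting error only. Gbp10 shares 73.3% of its 50-base transcript windows with Gbp6, and 45.9% of the windows of Gbp6 occur in Gbp10, so the split of reads between them is uncertain. The other 8 members share at most 16.7% of such windows with any member, and Gbp5 shares none.

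On chromosome 3 the order is Gbp5, Gbp7, Gbp3, Gbp2b and Gbp2, and the 4 tested genes differed by log2 1.38 to 2.13 between diabetic saline and non-diabetic saline. On chromosome 5 the order is Gbp8, Gbp9, Gbp4, Gbp10 and Gbp6, and the tested genes ranged more widely, at log2 0.40 to 3.39, with the largest values at both ends and the 2 that did not pass between them. In the map of centred values this appears as a more even block for the tested genes of the upper cluster than for those of the lower. Even in the upper block Gbp7 stood at -0.33 in diabetic Esm-1 replicate 3, where Gbp5, Gbp3 and Gbp2 were above their means. The row of Gbp2b, which was too low for the test, breaks the upper block, at 0.53, 1.02 and -1.11 in diabetic Esm-1. Diabetic saline replicate 2 was above its group mean in 8 of 8 tested genes and replicate 1 in 0 of 8, and diabetic Esm-1 replicate 1 was above its group mean in 8 of 8 and replicate 3 in 0 of 8. In the other libraries the genes were split, with 4 and 2 of 8 above the group mean in diabetic saline replicates 3 and 4, 3 of 8 in diabetic Esm-1 replicate 2, and 2, 1 and 6 of 8 in non-diabetic saline replicates 1 to 3.

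**Figure D2:**
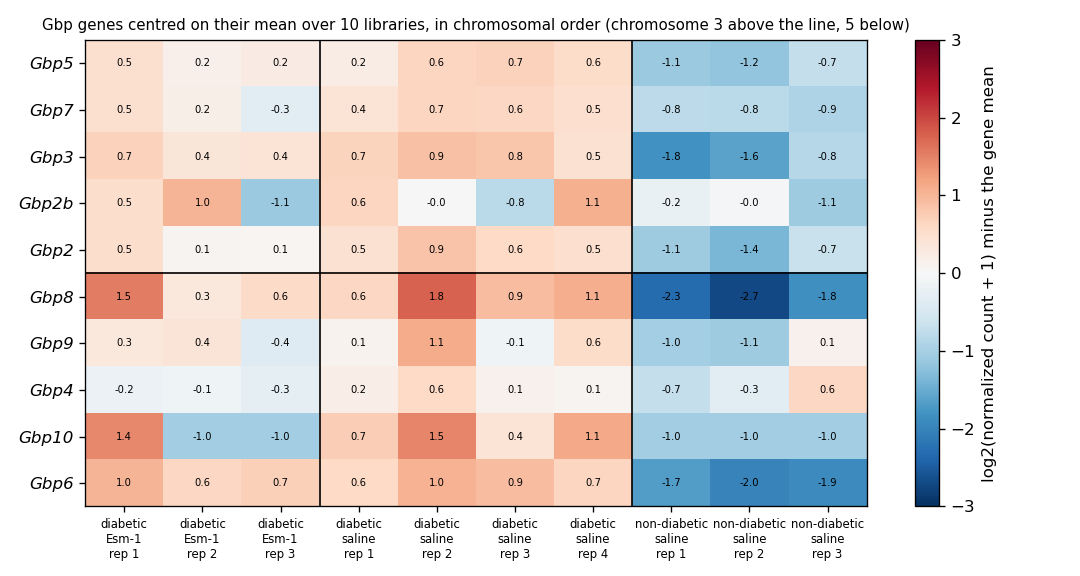
Each cell is log2(normalized count + 1) of 1 Gbp gene (rows, in chromosomal order) in 1 library (columns, by group), minus the mean of that gene over the 10 libraries. Gbp8 and Gbp6 have the deepest blue in non-diabetic saline replicates 2 and 3. In replicate 1 of that group Gbp8 is deepest, followed by Gbp3 at -1.83 and Gbp6 at -1.67. Gbp4 and Gbp9 are near their mean or above it in non-diabetic saline replicate 3.

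The 5 genes Gbp2, Gbp3, Gbp6, Gbp7 and Gbp8 were also set against each other through the log2 ratio of each pair within a library, so that a factor shared by a library cancels. Gbp5, which was called in limma as well, was not among these 5. Of the 10 pairs, 6 differed between diabetic saline and non-diabetic saline in a two-sided exact permutation test (p = 0.0286, the smallest that 4 against 3 libraries allow, adjusted p = 0.0476 over the 10 pairs). Gbp8 rose more than Gbp7, Gbp2 and Gbp3, whose log2 ratios to Gbp8 differed by -2.01, -1.75 and -1.26 (diabetic saline minus non-diabetic saline). Gbp6 rose more than Gbp7, with a difference of 1.282 in the log2 ratio of Gbp6 to Gbp7, and more than Gbp2, with a difference of -1.02 in the log2 ratio of Gbp2 to Gbp6. Gbp3 rose more than Gbp2, with a difference of -0.49 in the log2 ratio of Gbp2 to Gbp3. Every other pair that passed held Gbp8 or Gbp6, which had passed the filter through the diabetic groups. Per non-diabetic library these genes had only 7 to 14 reads (Gbp8) and 7 to 17 reads (Gbp6). The pairs of Gbp3 with Gbp7, Gbp3 with Gbp6, Gbp6 with Gbp8 and Gbp2 with Gbp7 did not pass, with exact permutation adjusted p = 0.0816, 0.127, 0.127 and 0.286. These calls sit at the edge of what the design allows: with a pseudocount of 5 no pair passed (exact permutation adjusted p = 0.0571 at best), and none did when all 28 pairs of the 8 tested genes were adjusted together, an analysis added after the values were seen (smallest adjusted p = 0.05).

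The make-up of the family also differed between groups in the values below, which were not tested. Per kilobase of exon, Gbp2 had the highest level in every library, at 98.3 ± 19.6 in diabetic Esm-1, 128 ± 16.2 in diabetic saline and 41.2 ± 10.1 in non-diabetic saline (normalized counts per kilobase, SD). In both diabetic groups Gbp3, Gbp8 and Gbp7 followed in that order in their means, with Gbp3 above Gbp8 in every library although the ranges of the 2 genes overlapped across libraries. In non-diabetic saline the second place was held by Gbp4, at 11.2 ± 5.66 per kilobase, whose range overlapped that of Gbp3 at 10.6 ± 4.11. Gbp8 stood seventh there, at 2.66 ± 0.90. As a share of the summed level per kilobase, Gbp8 made up 11.4%, 11.03% and 3.10% in diabetic Esm-1, diabetic saline and non-diabetic saline, and Gbp6 4.78%, 3.87% and 1.88%. Gbp4 made up 4.66%, 5.03% and 12.8% in the same groups, and Gbp2 held 44.4%, 46.3% and 48.6%. Gbp8 was higher, and Gbp4 lower, as a share in every diabetic library than in any non-diabetic one. The summed normalized counts of the 10 genes were 818 ± 157 in diabetic Esm-1, 1015 ± 145.6 in diabetic saline and 342 ± 92.7 in non-diabetic saline (SD), and the groups with and without diabetes did not overlap.

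**Figure D3:**
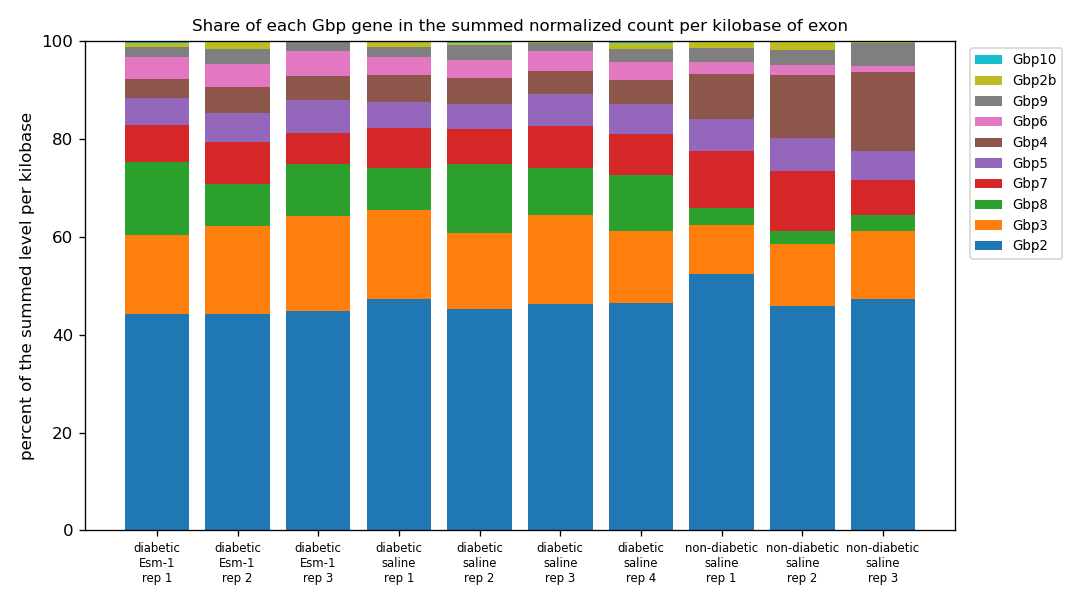
Stacked bars show the percent (vertical axis, 0 to 100) that each Gbp gene contributes to the summed normalized count per kilobase of exon in each of the 10 libraries. Gbp2 fills 44.1% to 52.4% of every bar, and the Gbp8 segment is 8.64% to 14.8% in diabetic Esm-1, 8.71% to 14.3% in diabetic saline and 2.64% to 3.35% in non-diabetic saline.

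Whether Esm-1 overexpression changed these genes in diabetes was addressed by diabetic Esm-1 against diabetic saline. No Gbp gene passed, and neither did any other gene in limma (0% of 8239 genes). At an unadjusted limma p under 0.05 there were 2 Gbp genes and 899 genes in all, and edgeR called 0 genes while DESeq2 called 30, none of them a Gbp gene. All 8 tested Gbp genes had differences below 0. Gbp4 stood at log2 -0.44 (95% interval -0.93 to 0.04), and its 3 diabetic Esm-1 libraries, at 70.6 to 79.1 normalized counts, lay below the 4 diabetic saline libraries, at 92.1 to 131. This arrangement was shown by 5.47% of all tested genes. Gbp7 stood at -0.44 (95% interval -0.82 to -0.05, limma adjusted p = 0.376) and Gbp2 at -0.38 (95% interval -0.74 to -0.02, limma adjusted p = 0.423). Without diabetic Esm-1 replicate 1, the library in which all 8 genes were above their group mean, Gbp8 moved to -0.65, Gbp7 to -0.62 and Gbp2 to -0.54, while Gbp4 stood at -0.46, and none passed (limma adjusted p = 0.366, 0.17, 0.212 and 0.503). In the fit of all libraries the other genes ranged from -0.30 in Gbp9 to -0.02 in Gbp6, whose 95% interval was -0.46 to 0.42. The interval of Gbp8 was the widest among the 6 genes that rose in diabetic saline, at -0.90 to 0.32, and a difference of any size within those bounds is compatible with these libraries. Gbp10 had 7 reads in diabetic Esm-1 and 12 in diabetic saline, a ratio of 0.692 (exact 95% counting interval 0.231 to 1.91), and Gbp2b had 19 in each, a ratio of 1.19 (0.594 to 2.37).

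The pair ratios told no genes apart in this comparison. None of the 10 passed, and the smallest exact permutation adjusted p was 0.143, for Gbp6 against Gbp2 and Gbp6 against Gbp7. The mean levels of podocyte, endothelial and mesangial markers given above were lower in diabetic Esm-1 than in diabetic saline, with no single marker past the threshold. With their mean as a term in the limma model, 6 of the 8 differences took the opposite sign: Gbp8 0.48, Gbp9 0.38, Gbp6 0.28, Gbp3 0.21, Gbp5 0.11 and Gbp7 0.10. Their part in the result was not tested.

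Diabetic Esm-1 against non-diabetic saline used the same 3 control libraries as the first comparison. Here 6 Gbp genes rose, beside 15.3% of all tested genes called in limma of which 7.19% were called higher and 8.11% lower. They were Gbp8 at log2 3.10 (SE 0.31, limma adjusted p = 3.18e-06), Gbp6 at 2.64 (SE 0.23), Gbp3 at 1.91 (SE 0.22), Gbp5 at 1.29 (SE 0.20), Gbp2 at 1.26 (SE 0.18) and Gbp7 at 0.94 (SE 0.20, limma adjusted p = 0.00249). For all of them the libraries did not overlap, as for 15.4% of tested genes in this direction and 17.4% in the other. Gbp9 stood at 0.76 (limma adjusted p = 0.169), and passed without non-diabetic saline replicate 3 (log2 1.15, limma adjusted p = 0.0352). Gbp4 stood at -0.04 (limma adjusted p = 0.941). Adding the mean of the glomerular markers left Gbp3, Gbp6 and Gbp8 called, while Gbp2, Gbp5 and Gbp7 kept their direction without passing, at log2 1.85, 1.88 and 1.84 (limma adjusted p = 0.0703, 0.118 and 0.0819). Podocyte marker means were 6.87 to 7.42 in diabetic Esm-1 and 8.08 to 8.47 in non-diabetic saline, and endothelial ones 5.97 to 6.39 and 6.87 to 7.14. Without overlap, the term can hardly be told apart from the group, so the genes it left called say nothing about cell make-up. In this comparison 15 of 18 podocyte, 14 of 17 tested endothelial and 5 of 12 mesangial markers were called lower. The same term left all 6 genes called in diabetic saline against non-diabetic saline, where podocyte marker means did not overlap either, at 7.40 to 7.92 and 8.08 to 8.47. With 3 against 3 libraries the pair ratios could not pass, since the smallest exact permutation p is 0.1.

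**Figure D4:**
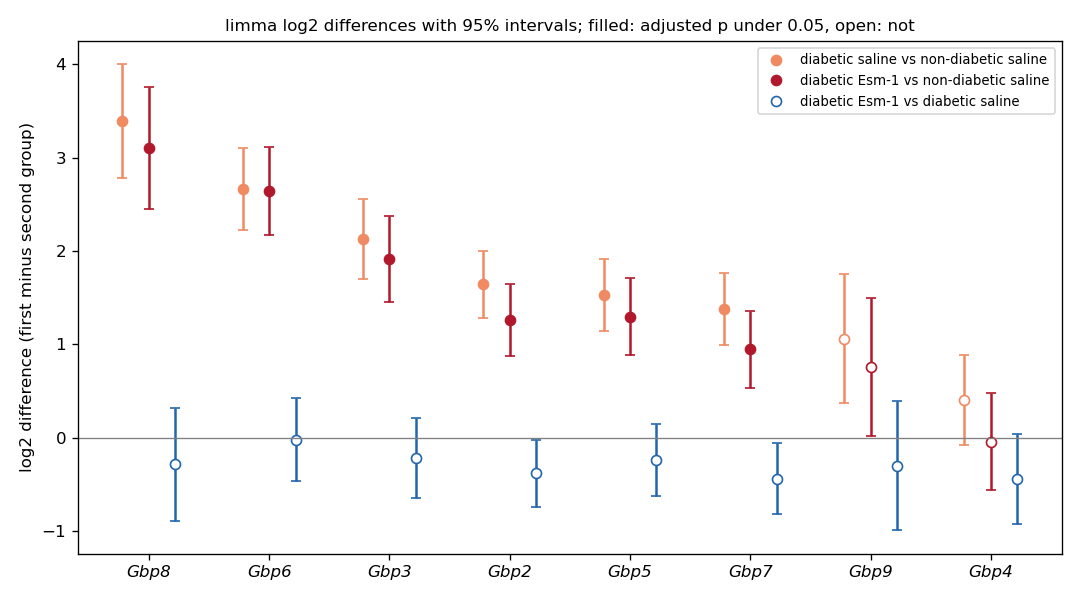
Points are limma log2 differences of the 8 tested Gbp genes (vertical axis, first minus second group) with 95% intervals, in 3 comparisons, filled where the adjusted p was under 0.05. Both comparisons with non-diabetic saline give filled points for Gbp8, Gbp6, Gbp3, Gbp2, Gbp5 and Gbp7, and all points for diabetic Esm-1 against diabetic saline are open and below 0, at -0.44 to -0.02.

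Genes around the family were then described through lists, read against a median log2 difference of -0.01 over all tested genes in diabetic saline against non-diabetic saline. Of all tested genes 3.73% rose and 1.81% fell in that comparison. Of the 9 tested immunity-related GTPases (IRG), which load onto parasite vacuoles with the Gbp proteins, 7 rose and none fell, with a median of 1.10. Gm12250, which encodes Irgb10, rose 10.9-fold, with means of 75.6 normalized counts in diabetic saline and 6.39 in non-diabetic saline, and Iigp1 and Igtp rose by log2 1.57 and 1.46. Of 13 other GTPases of the dynamin superfamily only the antiviral Mx1 (log2 3.32) and Mx2 (1.98) rose, and the median was 0.07. Mx1 averaged 15.1 normalized counts in diabetic saline and 0.62 in non-diabetic saline, and Mx2 37.1 and 9.58. Like Gm12250, they therefore entered the test through the diabetic groups. Of 28 listed type I interferon targets 26 were tested, and all 26 rose, with a median of 2.24, Rsad2, Ifit2 and Irf7 having the lowest p. Of 11 genes that respond mainly to interferon gamma, 4 rose, among them the checkpoint ligand Cd274 (log2 2.24), the peptide transporter subunit Tap1 (1.06) and the immunoproteasome subunit Psmb8 (1.08), with a median of 1.03.

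Among regulators, 4 of 11 STAT, IRF and related transcription factors rose, led by Irf7 (log2 2.51), Batf2 (1.53) and Nlrc5 (0.94), with a median of 0.50. The share that rose over all tested genes was 3.73%. None of 8 interferon receptor and JAK kinase genes passed (median 0.03), the largest difference being -0.57 in Ifngr1 (limma adjusted p = 0.26). Of 8 negative regulators of interferon signalling, the deconjugating protease Usp18 (log2 2.76) and the ubiquitin-like modifier Isg15 (1.56) rose, with a median of 0.43. Usp18 averaged 9.11 normalized counts in non-diabetic saline, so it too entered the test through the diabetic groups. The lists share genes: Usp18, Isg15, Irf7, Mx1 and Mx2 are also among the type I interferon targets, so their rises are not separate results. On the side of effectors and partners, 1 of 5 tested genes listed under inflammasome and pyroptosis rose, the endotoxin receptor Tlr4 (log2 1.38, median 0.58). Tlr4 averaged 7.97 normalized counts in non-diabetic saline, so it also entered the test through the diabetic groups. Casp4 and Gsdmd of the same list did not pass (limma adjusted p = 0.124 and 0.784). None of 10 genes of ATG8 conjugation, the autophagy pathway that helps Gbp proteins reach vacuoles, passed (median -0.07, largest difference 0.67 in Gabarapl1, limma adjusted p = 0.0587). None of 7 prenylation genes passed either (median 0.20, largest difference 0.78 in Fdps, limma adjusted p = 0.301). In diabetic Esm-1 against diabetic saline no gene of these lists passed. The type I targets had a median of -0.35 there, with 0 of 26 above 0, and the IRG genes a median of -0.46, against 0.0049 over all tested genes. The largest differences in each list were -0.85 in Usp18 (limma adjusted p = 0.205), -0.73 in the endothelial GTPase gene Ehd3 (0.142), -0.61 in Igtp (0.367) and -0.55 in Tlr4 (0.602). They were 0.62 in Cd74 (limma adjusted p = 0.435), 0.60 in Map1lc3a (0.275), 0.45 in Irf3 (0.602), 0.43 in Zmpste24 (0.408) and -0.22 in Ifnar2 (0.785).

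**Figure D5:**
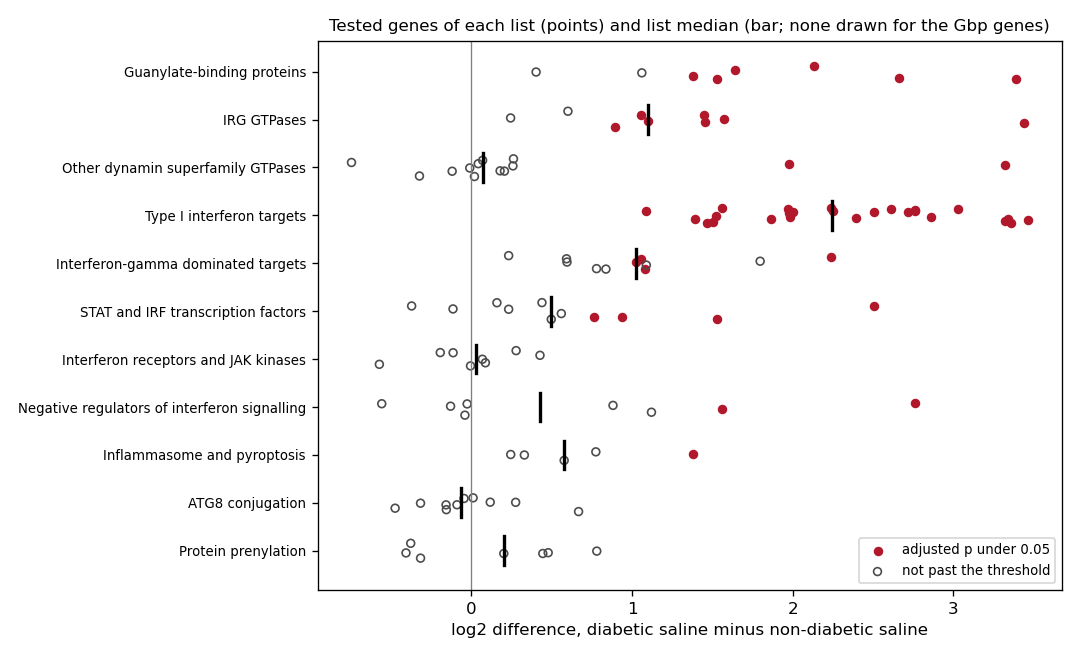
Points are log2 differences between diabetic saline and non-diabetic saline (horizontal axis) of the tested genes of each list (rows), filled where the limma adjusted p was under 0.05; black bars mark list medians, drawn for all lists but the Gbp genes. Every tested type I interferon target is filled and right of 0, the receptor and JAK list is centred near 0.03 with no filled point, and 6 of 8 Gbp points are filled.

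The genes whose profiles over the 10 libraries were most like each Gbp gene were ranked by the root mean square difference of centred log2 values. Gbp2 and Gbp5 were nearest to each other, at 0.14, where the median over all tested genes was 0.81 for Gbp2 and 0.77 for Gbp5. Slc15a3 and Gm4951 came next for Gbp2, and Xaf1 and Gm4951 for Gbp5. Gbp7 had Ddx58, which encodes the viral RNA sensor RIG-I, at 0.081, followed by Eif2ak2 and Xaf1. Gbp3 was nearest to Herc6, Cd274 and Ifi204, at 0.20 to 0.22. Gbp8 was nearest to Ifit2, Rsad2 and Gm12250, at 0.34 to 0.38, and Gbp6 to Trim30a, Zbp1 and Apol9b, at 0.30. The 2 genes that did not pass had other neighbours, Fam129a, Plac8 and Parp10 for Gbp9 and Bcl10, Tapbpl and Fstl1 for Gbp4. The low counts of Gbp2b and Gbp10 left their nearest genes, Fam98a at 0.38 and Cxcr4 at 0.33, resting on few reads.

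Immune cells can also express Gbp genes, and their markers were read from the same libraries. The list of 23 myeloid symbols holds both Emr1, which had a row, and its newer name Adgre1, which had none. A missing row can therefore reflect the naming in the table. Of the 23 symbols 11 had a row, and their summed level was 133 to 177 normalized counts in diabetic Esm-1, 161 to 197 in diabetic saline and 161 to 186 in non-diabetic saline. The saline groups overlapped in that sum, most of which came from Cd14 and Mrc1. Mrc1 alone had a lower mean in diabetic saline than in non-diabetic saline, and every other myeloid marker with a row had a higher one. Apart from Cd14 and Csf1r, these others averaged under 10 normalized counts in both saline groups. Cd14, a co-receptor for endotoxin, averaged 89.7 in diabetic Esm-1, 104.8 in diabetic saline and 89.6 in non-diabetic saline, and Mrc1, the macrophage mannose receptor that some endothelium also makes, 25.7, 41.8 and 57.9. No myeloid marker passed in diabetic saline against non-diabetic saline among the 3 tested. Ptprc, the pan-leukocyte gene, averaged 4.26, 5.17 and 1.75, and Lyz2 3.49, 4.37 and 2.68, in the same order of groups, while C1qa was listed at 0 in all non-diabetic libraries. Of 20 lymphocyte markers 1 had a row, Cd3e, at 0 to 10.5 in diabetic Esm-1, 0 to 5.55 in diabetic saline and 9.97 to 22.3 in non-diabetic saline. Tubule markers were present too, and 5 of 13 distal tubule and collecting duct markers rose and 3 of 15 proximal tubule markers fell in diabetic saline against non-diabetic saline. In the same comparison 5 of 18 podocyte markers and 2 of 17 tested endothelial markers fell, and of 12 mesangial markers 1 rose and 1 fell. Over all tested genes 3.73% rose and 1.81% fell. The part of these markers in the rise of the Gbp genes was not tested, and which glomerular cells carried the Gbp reads was not measured.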

How the data were processed

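RNA sequencing of total RNA from isolated glomeruli gave 10 libraries. Per the submitters' processing notes the tools were Trimmomatic 0.36, STAR 2.5.3a, DESeq2 1.28.1 and R 4.0.2, with build mm9. Strandedness, counting program and annotation: not given in the sources used here. The deposited values are normalized counts, a signal in which reads are divided by a size factor per library. Whole reads came back for 100% of the 129340 values (tolerance 0.001), and no row held under 7 reads, so genes with fewer reads over the 10 libraries have no value here.

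The main test was limma 3.58.1 with an intensity trend on log2(value + 1), all 10 libraries in 1 fit of 3 groups, for genes with at least 10 normalized counts in at least 3 libraries, two-sided, with Benjamini-Hochberg adjustment over 8239 genes and a threshold of 0.05. Pair ratios used exact permutation. Recovered reads went into edgeR 4.0.16 (quasi-likelihood, TMM) and DESeq2 1.42.0 as alternatives, run in R 4.3.3, and the limma step was tested on simulated data. Lengths are exon unions of GENCODE M21 on GRCm38, and shared transcript windows came from the same annotation, not from the build of the authors. Replicate numbers follow accession order and pair nothing. Named genes were all Gbp genes, the 3 nearest profiles of each, and up to 3 genes per list with the lowest p, or the largest difference where none passed. Leukocyte genes named beyond these were chosen after their values were seen. The members, lists and tests were chosen with earlier results of these data known. Alternatives covered pseudocount, filter, scaling, tool, trend, a term for glomerular markers, a term for or removal of titles with numbers under 100, and each library left out.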

Additional observations from a re-analysis of the deposited data

How the results depend on the processing

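The 6 Gbp genes called in diabetic saline against non-diabetic saline were the same 6 in all 22 other settings, and Gbp9 or both Gbp9 and Gbp4 joined them in some, so that 6 to 8 members were called. In diabetic Esm-1 against diabetic saline 0 members were called in every setting, and in diabetic Esm-1 against non-diabetic saline 3 to 7, the 3 coming with the glomerular marker term. The pairs that passed numbered 0 in place of 6 with a pseudocount of 5 (smallest exact permutation adjusted p = 0.0571) and 0 with all 28 pairs (0.05). In both settings too few pairs reached the smallest possible p for any to pass after adjustment. Pairs could not be tested with a library left out. Signs turned among differences that were not called. In diabetic Esm-1 against diabetic saline the marker term gave Gbp5 0.11, Gbp7 0.10, Gbp3 0.21, Gbp8 0.48, Gbp9 0.38 and Gbp6 0.28, and Gbp6 was 0.00029 when libraries were scaled to a common total leaving out Rn45s, Lars2 and Mir6236, and -0.14 to 0.060 with single libraries left out (above 0 without replicate 2 or 3 of either group). In diabetic Esm-1 against non-diabetic saline Gbp4 was 0.10 with the title term, 0.34 without the libraries with titles under 100, 0.66 with the marker term, and -0.33 to 0.34 with single libraries left out (above 0 without diabetic Esm-1 replicate 3, at 0.0056, or non-diabetic saline replicate 3). The cause was not tested. Over all genes 456 were called in diabetic saline against non-diabetic saline, 224 without the intensity trend, 169 with the marker term and 289 to 296 without diabetic saline replicate 3 or non-diabetic saline replicate 1 or 2. Between diabetic Esm-1 and non-diabetic saline the numbers were 1260, 791 without the trend, 31 with the marker term and 626 to 704 without diabetic Esm-1 replicate 3 or 2. For diabetic Esm-1 against diabetic saline they were 0 in limma, 30 in DESeq2, 10 without diabetic Esm-1 replicate 1 and 52 without diabetic saline replicate 1. No paired analysis was possible because the labels give no replicate numbers that tie libraries across groups. Depth limits Gbp2b and Gbp10, with at most 19 reads per group.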
